A study of Mus musculus with 6 samples.

Results

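Oxidative phosphorylation is described here through 102 protein-coding genes of the 54446 genes in the count table. They are all genes whose symbol begins with Nduf and a subunit letter and number, with Uqc, with Cox and a number from 4 to 8, or with Atp5, the genes Sdha, Sdhb, Sdhc and Sdhd, and the protein-coding genes of the mitochondrial genome. The choice used names only and no measured value. Of the 102 genes, 89 are nuclear and 13 are mitochondrial, and 95 (82 nuclear and all 13 mitochondrial) had at least 10 counts in at least 2 libraries and were tested. A few members that match by name are not subunits of a complex but assembly or regulatory factors, such as Cox7a2l and the Uqcc genes. Genes were assigned to complexes by symbol alone, so Ndufa4, a complex IV-associated protein, is counted with complex I in all values by complex.

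The study treated TRAMP-C2 cells, a prostate cancer line from male C57BL/6 mice, with platinum drugs and measured poly(A) RNA by sequencing. There were 3 groups of 2 libraries: control cells without an agent, cells given 2 µM oxaliplatin and cells given 2 µM cisplatin, all at 24 h. All groups are the same cell line, so the libraries show 1 tumour line and not normal prostate, and no source used here says that the 2 libraries of a group came from separate cultures. The p-values therefore measure the spread between these libraries, which may be technical.

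Oxidative phosphorylation makes most of the ATP of many cells. Complex I (NADH dehydrogenase, the Nduf and mt-Nd genes) and complex II (succinate dehydrogenase, the Sdh genes) pass electrons to ubiquinone, complex III (the Uqc genes and mt-Cytb) hands them to cytochrome c, and complex IV (cytochrome c oxidase, the Cox and mt-Co genes) gives them to oxygen. Complexes I, III and IV pump protons, and complex V (ATP synthase, the Atp5 and mt-Atp genes) uses the gradient to make ATP. Complex II is wholly nuclear, whereas each of the other complexes joins nuclear subunits with subunits from the mitochondrial genome. Oxaliplatin and cisplatin are both platinum compounds that bind DNA. They differ in the groups the platinum carries, which are a diaminocyclohexane and an oxalate in oxaliplatin and ammonia and chloride in cisplatin.

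The libraries held 21345312 to 24041767 counts each. The mitochondrial members took 1.71 to 1.96% of all counts and the nuclear members 0.976 to 1.07%. The label of a prostate cancer line was checked against fixed markers: the epithelial gene Cdh1 had 356 to 562 counts, but the luminal gene Pbsn and the basal gene Krt5 had 0 counts in every library and Epcam had 0 to 2. The mesenchymal gene Vim had 53688 to 67417 counts. Of 4 leukocyte genes Ptprc and Cd3e had 0 to 1 counts, Cd79a had 0 to 3 and Cd68 had 30 to 51.

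The mitochondrial genes have to be read together with copies of their sequence in the nuclear genome. An alignment of all annotated transcripts found 11 copies of 9 of the 13 mitochondrial genes, at an identity of at least 95% over at least 100 bases, while mt-Nd1, mt-Nd6, mt-Cytb and mt-Atp8 had none. Of the copies, 7 lie side by side on chromosome 1 as annotated pseudogenes and are nearly perfect. The ends of mt-Co3 (chrM:9331-9390, plus strand) and of its copy Gm28437 (chr1:24613189-24613247, minus strand) show this, as do the starts of mt-Nd3 (chrM:9459-9490) and Gm28438 (chr1:24613088-24613119) and the stretch of mt-Co1 (chrM:6381-6440) where the copy Gm29216 (chr1:24616138-24616197) begins. The sequences are from GENCODE release M21 on GRCm38, written 5′ to 3′ on the strand of the gene, and capitals mark bases that differ or that the copy lacks.
mt-Co3: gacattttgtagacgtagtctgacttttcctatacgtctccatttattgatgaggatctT
Gm28437: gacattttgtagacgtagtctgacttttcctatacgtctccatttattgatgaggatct
mt-Nd3: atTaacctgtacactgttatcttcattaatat
Gm28438: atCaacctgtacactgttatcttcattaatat
mt-Co1: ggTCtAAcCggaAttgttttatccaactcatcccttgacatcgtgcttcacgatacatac
Gm29216: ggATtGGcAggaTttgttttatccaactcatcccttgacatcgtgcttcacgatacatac

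Gm28437 matched mt-Co3 over all 783 of its bases and stopped 1 base short of the end of the gene. Gm28661 matched mt-Co2 over 681 bases, Gm10925 matched mt-Atp6 over 678, Gm10222 matched mt-Nd4l over 294 and Gm28439 matched the first 876 of the 1378 bases of mt-Nd4, each without a difference. Gm28438 differed from mt-Nd3 at 1 of 345 bases, T3C counted from the start of the gene. Gm29216 differed from the last 492 bases of mt-Co1 at 6 places, of which the first is T1056A and the last A1066T. Over identical stretches longer than a read, reads of the mitochondrial transcript and of the copy cannot be told apart, and a program that shares such reads among genes has to divide them.

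mt-Co3, subunit 3 of cytochrome c oxidase, was the extreme case. Its own normalised counts (counts divided by the size factor of the library) were 796 and 1460.1 in control cells, 1400.0 and 769 after oxaliplatin and 752 and 2.05 after cisplatin. The highest library was 713 times the lowest, and the libraries of a group lay as far apart as those of different groups, with the second cisplatin library close to 0. The copy Gm28437 meanwhile held 73429.7 to 83266.5 counts in every library.

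Summed with its copy, mt-Co3 had 79211 and 80488 normalised counts in control cells, 77664 and 77225 after oxaliplatin and 82380.2 and 75138 after cisplatin. The ratio of the highest to the lowest library was then 1.1. The share of the sum that stood under mt-Co3 itself was 0.00308 to 1.81%. The summed value showed no difference that passed the test, at -0.04 ± 0.04 (log2 fold change, SE) for oxaliplatin (DESeq2 Wald test, adjusted p = 0.512) and -0.02 ± 0.04 for cisplatin (DESeq2 adjusted p = 0.78).

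The same division touched other mitochondrial genes to different degrees. Only 0.197 to 1.71% of the summed counts of mt-Co2 stood under the gene, 1.6 to 5.11% of those of mt-Atp6, 1.25 to 14.9% of those of mt-Nd3, 22.8 to 37.3% of those of mt-Nd4l and 82.9 to 86.4% of those of mt-Co1. The ratio of the highest to the lowest library fell from 9.66 to 1.19 for mt-Co2, from 14 to 1.19 for mt-Nd3 and from 2.98 to 1.15 for mt-Atp6 on summing. mt-Nd4 was not touched in these counts, since Gm28439 had 0 counts in every library although it matches the gene, and the copies of mt-Nd2 and mt-Nd5 had fewer than 10 counts in each library. The plot of own and summed counts shows the 5 scattered genes close up once the copies are added.

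**Figure D1:**
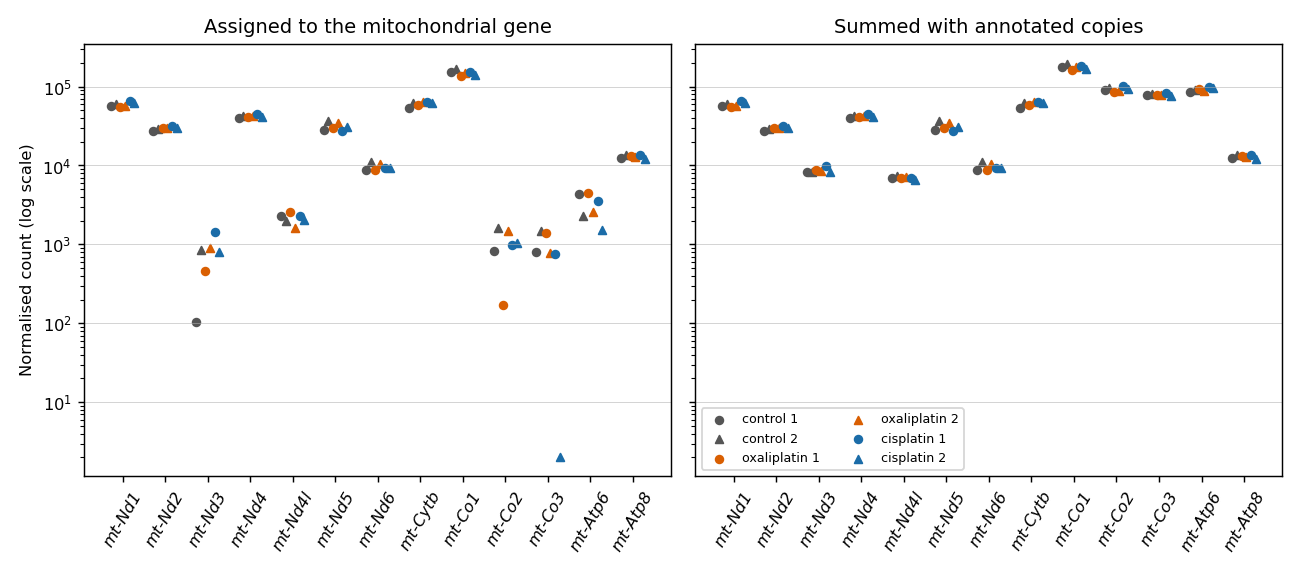
Normalised counts of the 13 mitochondrial genes in each of the 6 libraries on a log axis, as assigned to the gene itself (left) and summed with the annotated copies (right). Colour marks the group and symbol shape the replicate. mt-Co3 spans 2.05 to 1460.1 on the left, and its highest library is 1.1 times its lowest on the right.

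Levels of different genes were compared per transcript length, as TPM (counts scaled for transcript length and library total) in control cells, mean ± SD of 2 libraries. Since poly(A) RNA was sequenced, these levels also depend on how well each transcript was captured, which was not tested. With copies added, the highest mitochondrial genes were mt-Co2 at 8650.4 ± 375, mt-Atp6 at 8230.2 ± 465 and mt-Co1 at 7679 ± 570.3 TPM, and the lowest were mt-Nd6 at 1213 ± 192 and mt-Nd5 at 1137 ± 225. These neighbours in the order did not differ beyond their spread. All 13 lay above the highest nuclear member, Atp5b, the catalytic beta subunit of ATP synthase, at 1085 ± 31.5 TPM, although mt-Nd5 and mt-Nd6 did so by less than their SD. Among the tested nuclear genes the median level was 112 TPM for complex I, 154 for complex II, 203 for complex III, 206 for complex IV and 302 for complex V, against 13.9 TPM for all tested genes. The tested nuclear members were also short, with a median transcript length of 671 bases against 1999 for all tested genes, and the mitochondrial genes had a median GC content of 37.1% against 50.6%.

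**Figure D2:**
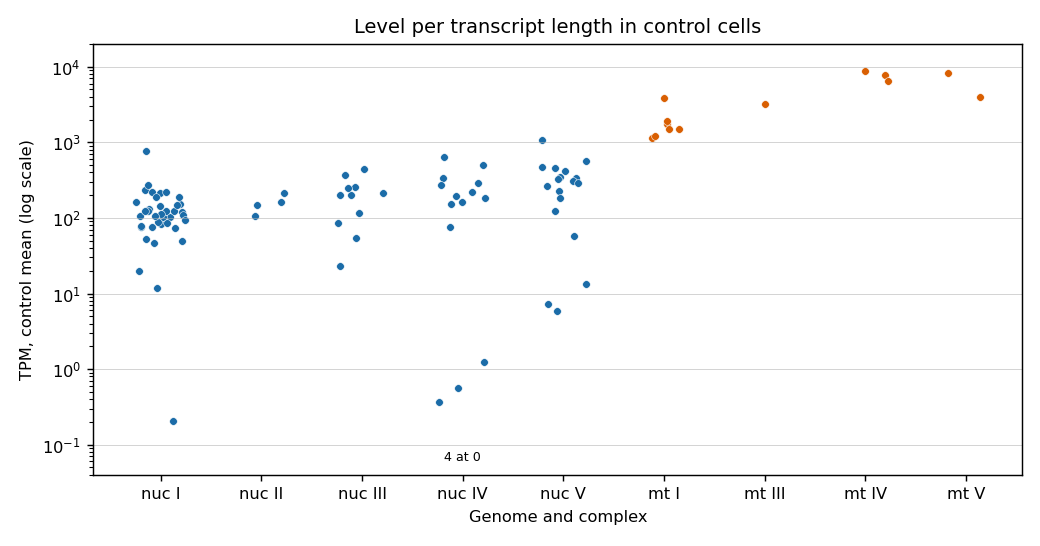
Level in control cells (TPM, mean of 2 libraries, log axis) of every nuclear member (blue) and of the mitochondrial genes summed with their copies (orange), by complex. Nuclear complexes have medians from 112 to 302 TPM among tested genes, and the mitochondrial genes lie between 1137 and 8650.4 TPM. The 4 members at 0 in control cells are all complex IV isoforms.

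Isoforms that belong to other tissues or to hypoxia were near 0. The 7 members that were not tested were Ndufa4l2, a hypoxia-induced relative of a complex IV-associated protein, with 2 to 5 counts per library, the lung and hypoxia isoform Cox4i2 with 0 to 1, the muscle isoform Cox6a2 with 3 to 9, the testis isoform Cox6b2 with 1 to 7, and Cox7b2, Cox8b and Cox8c with 0 in every library. A count of 0 allows a level of up to 0.125 to 0.141 CPM (3 counts, counting error only). The muscle isoform Cox7a1 stood at 1.24 ± 0.133 TPM in control cells against 218 ± 4.97 for Cox7a2, its widely expressed counterpart. Of 4 muscle genes Ckm and Myh1 had 0 counts in every library, Des had 3 to 16 and Acta1 had 12 to 26. Subunit c, which forms the rotor ring of ATP synthase, is encoded by 3 genes with the same mature product, and these stood at 460.1 ± 46 TPM for Atp5g3, 58.2 ± 4.04 for Atp5g1 and 7.25 ± 0.421 for Atp5g2. The gap between Atp5g3 and Atp5g1 rests in part on the annotated lengths used, 718.5 and 2675.5 bases. Their normalised counts in control cells were closer, at 5647 and 4815 for Atp5g3 and 2605 and 2319 for Atp5g1. The value of Atp5g2 is uncertain, since transcribed pseudogenes with near-identical sequence held 97.9 to 98.8% of the counts summed over gene and copies. Of the 82 tested nuclear members, 8 had copies with at least 10% of such sums in some library, and 3 had at least 50%. Among the 8 were Atp5l (65.4 to 67.4%), Cox7c (32.1 to 43.3%), Ndufa12 (23.2 to 29.9%) and Ndufs5 (15.1 to 24.6%). Counts of nuclear members were not summed with copies.

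The first comparison asks how oxaliplatin changed these genes. Few changed and by little. At a DESeq2 adjusted p under 0.05, 7 of the 95 tested members (7.37%) were called, against 20.2% of all 14956 genes tested. Of these, 6 were higher (6.32% of members against 10.7% of all genes) and 1 was lower, where 9.5% of all genes were. Treated and control libraries were fully apart for 39 members (41.1%), against 64.8% of all genes. The median log2 fold change was 0.06 for the 82 nuclear genes and -0.02 for the 13 mitochondrial genes, beside -0.00285 for all genes. With the copies summed, the mitochondrial median was also -0.02. In bulk RNA, fewer cells with a transcript and less of it per cell cannot be told apart.

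The called genes were in complexes I, IV and V. In complex I they were Ndufa9, an accessory subunit near the ubiquinone site, Ndufab1, the mitochondrial acyl carrier protein, and Ndufs4, an accessory subunit added late in assembly. Ndufa9 had 2377 and 2324 normalised counts in control cells and 2768 and 2690.4 after oxaliplatin (log2 fold change 0.22 ± 0.06 SE, DESeq2 adjusted p = 0.00186). Ndufab1 went from 726 and 707 to 825 and 899.5 (0.27 ± 0.10, DESeq2 adjusted p = 0.0382) and Ndufs4 from 1044 and 1079 to 1246 and 1222 (0.22 ± 0.08, DESeq2 adjusted p = 0.0381). In each of these genes both treated libraries lay above both control libraries. Copies of Ndufab1 held 18.3 to 23.8% of its summed counts.

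In complex V the called genes were Atp5b, with 33854 and 31919 normalised counts in control cells and 35284 and 36270.4 after oxaliplatin (log2 fold change 0.12 ± 0.04, DESeq2 adjusted p = 0.00671), and Atp5f1, subunit b of the stalk that holds the head of the enzyme, with 5579 and 5390.2 against 6057 and 6143 (0.15 ± 0.04, DESeq2 adjusted p = 0.00314). In complex IV they were Cox5a, a nuclear subunit of cytochrome c oxidase, and Cox7a2l, both given with their values after the account of cisplatin. Complex II had no call by DESeq2 or by edgeR, and no gene of it had an unadjusted p under 0.05. Complex III had no call by DESeq2, 1 gene at an unadjusted p under 0.05 and 1 call by edgeR, which called 30.9% of all genes.

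No mitochondrial gene was called after oxaliplatin by DESeq2 or edgeR, and 1 had an unadjusted p under 0.05. With the copies summed before the fit, 1 mitochondrial gene was lower. That was mt-Co2, with 91275 and 95329 normalised counts in control cells and 85507 and 86765 after oxaliplatin (log2 fold change -0.12 ± 0.04, DESeq2 adjusted p = 0.0363). The summed differences of the other mitochondrial genes ran from -0.16 for mt-Co1 to 0.09 for mt-Cytb.

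The 6 rises after oxaliplatin depended on single libraries. Each was no longer called without control replicate 2, without oxaliplatin replicate 1 or without oxaliplatin replicate 2. Fewer of all genes were called in these fits as well. The calls of Ndufab1 and Ndufs4 were lost without any 1 of the 6 libraries. Without control replicate 1 the number of called members rose, while the number over all genes fell. edgeR called 11 members, where it called 30.9% of all genes. A fit after removal of length and GC trends called 20.8% of all genes. Among the members it gave 9 higher and 4 lower calls in place of 6 and 1.

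**Figure D3:**
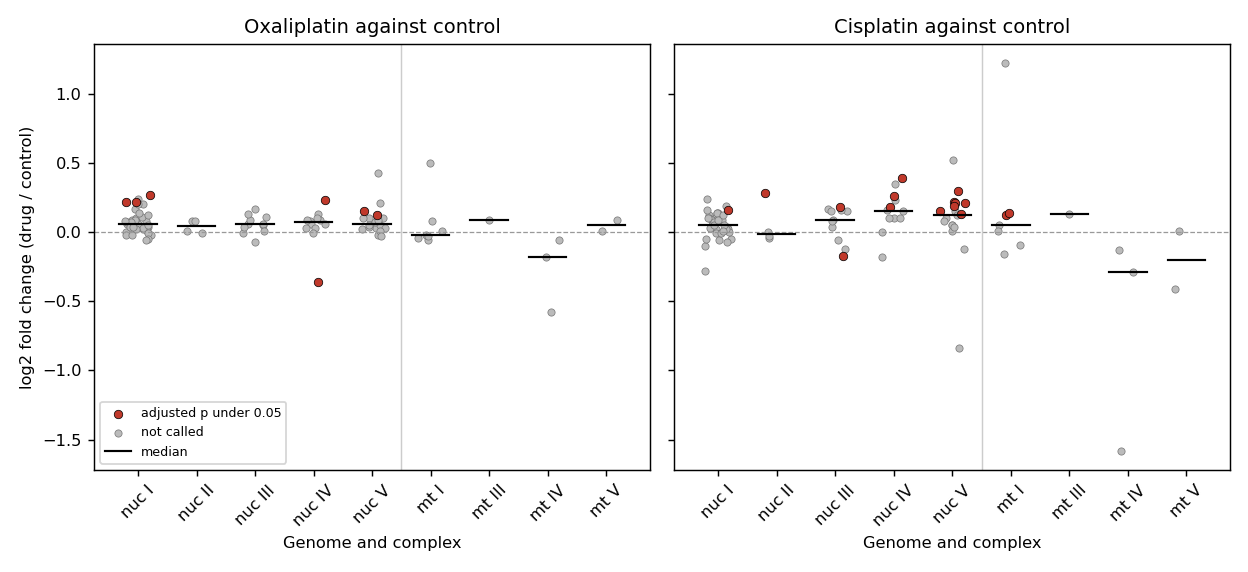
log2 fold change of each tested member against control after oxaliplatin (left) and cisplatin (right), by genome and complex, from counts assigned to the gene itself. Red points were called at a DESeq2 adjusted p under 0.05, grey points were not, and bars are medians. Red points above 0 are most frequent in nuclear complex V after cisplatin (7 of 18, where 15.7% of all genes were higher). The red point farthest below 0 is Cox7a2l after oxaliplatin.

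The second comparison asks the same of cisplatin at the same dose and time. More members were called, and nearly all were higher. Of the 95 tested members 16 (16.8%) were called, against 28.1% of all genes. Of these, 15 were higher (15.8% of members against 15.7% of all genes) and 1 was lower, where 12.4% of all genes were. The libraries did not overlap for 45 members (47.4%), against 69.4% of all genes. The nuclear median was 0.09 and the mitochondrial median 0.00538, beside -0.000832 for all genes. With the copies summed, the mitochondrial median was 0.05, nearer to the nuclear one, and 3 of the 13 genes were higher. The share of members called higher was close to that of all genes, and the share called lower was below it, a description with no test. Both comparisons use the same control libraries. The number called fell without control replicate 2 and without either cisplatin library, as it did over all genes. With total counts as the scaling it fell to 8, where 28.1% of all genes were still called.

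ATP synthase held the most calls: 7 of the 18 nuclear complex V genes (38.9%) were higher, with a median log2 fold change of 0.13, against 1 of 37 in complex I (median 0.05), 1 of 4 in complex II (-0.02), 1 higher and 1 lower of 11 in complex III (0.09) and 3 of 12 in complex IV (0.15). The normalised counts of complex V summed to 103604 and 97607 in control cells, 104608 and 107364 after oxaliplatin and 110569 and 109147 after cisplatin. The cisplatin libraries lay above all others in that sum, and the oxaliplatin libraries lay between the groups. For complex I the sums were 59654 and 55617, 59730 and 60851, and 61265 and 58964, so that the first control library lay above the second cisplatin library. The count in complex V fell without control replicate 2 and without either cisplatin library, as did the count over all genes. With edgeR it was 9, where edgeR called 40.9% of all genes.

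The complex V genes that rose covered several parts of the enzyme. Atp5f1 had 6377 and 6272 normalised counts after cisplatin, beside 5579 and 5390.2 in control cells (log2 fold change 0.21 ± 0.04, DESeq2 adjusted p = 2.54e-05). Atp5o, the protein that joins the stalk to the head, had 6263 and 6084 against 5510.2 and 5200.1 (0.21 ± 0.05, DESeq2 adjusted p = 0.000179). These calls held under all 17 alternative analyses. Wdr77 on the opposite strand overlaps Atp5f1 and had 2351 to 3642 counts, and a second gene with the symbol Atp5o overlaps the first and had 9 to 72, so that their reads may be shared. Atp5g1 went from 2605 and 2319 to 3135 and 2931 (0.30 ± 0.07, DESeq2 adjusted p = 0.000261), a call that was lost only without cisplatin replicate 1, at a DESeq2 adjusted p of 0.0562. A pseudogene of Atp5g1 held 11.5 to 17.5% of its summed counts.

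On the log2 scale Atp5b rose by 0.13 ± 0.04 (DESeq2 adjusted p = 0.00198), Atp5c1, the gamma subunit of the rotor, by 0.15 ± 0.04 (DESeq2 adjusted p = 0.00318), Atp5g3 by 0.19 ± 0.07 (DESeq2 adjusted p = 0.0265), and Atp5d, the delta subunit of the rotor, named here only because it was called, by 0.22 ± 0.08 (DESeq2 adjusted p = 0.0143). Of these, Atp5b was lost without control replicate 2 (DESeq2 adjusted p = 0.0591) and without cisplatin replicate 2 (0.0678), and Atp5c1, Atp5g3 and Atp5d were lost without control replicate 2 and without either cisplatin library. The first control library lay well above the second in Atp5g3 (5647 and 4815 normalised counts) and in Atp5d (4187 and 3533).

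Succinate dehydrogenase moved in 1 gene only among its 4. Sdhd, a membrane anchor subunit, had 2914 and 2795 normalised counts in control cells, 2949 and 3073 after oxaliplatin and 3465 and 3449 after cisplatin. Both cisplatin libraries stood above the other 4, and the rise against control was 0.28 ± 0.06 (DESeq2 adjusted p = 1.1e-05) and held under all 17 alternatives. The other anchor, Sdhc, had 2108 and 2055 in control cells and 2030.2 and 2042 after cisplatin (-0.03 ± 0.06, 95% interval -0.16 to 0.09). The catalytic Sdha differed by 0.000941 ± 0.04 (95% interval -0.08 to 0.08) and the iron-sulfur subunit Sdhb by -0.04 ± 0.07 (-0.18 to 0.10).

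In complexes I and III the cisplatin calls were near the threshold. Ndufb8, a subunit of the membrane arm of complex I, had 2425 and 2295 normalised counts in control cells and 2688 and 2586 after cisplatin (log2 fold change 0.16 ± 0.06, DESeq2 adjusted p = 0.0338). The core proteins of complex III went apart: Uqcrc1 had 3974 and 3409.9 against 4118 and 4228 (0.18 ± 0.07, DESeq2 adjusted p = 0.0459), and Uqcrc2 had 2130.4 and 2200 against 1965 and 1879 (-0.17 ± 0.07, DESeq2 adjusted p = 0.04). All 3 calls were lost without control replicate 2, without either oxaliplatin library and without either cisplatin library, and those of Ndufb8 and Uqcrc2 also without control replicate 1. Under the 17 alternatives their DESeq2 or edgeR adjusted p reached 0.348, 0.527 and 0.364.

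Cytochrome c oxidase held the clearest single-gene values. Cox5a had 2004 and 1941 normalised counts in control cells, 2262 and 2352 after oxaliplatin and 2565 and 2613 after cisplatin, 3 groups without overlap. On the log2 scale the rise with oxaliplatin was 0.23 ± 0.06 (DESeq2 adjusted p = 0.00247) and that with cisplatin 0.39 ± 0.06 (DESeq2 adjusted p = 8.06e-09). The cisplatin call held under all 17 alternatives, while the oxaliplatin call was lost in 4, including without control replicate 2 and without either oxaliplatin library. Cox4i1, the common form of subunit 4, had 7919 and 7205 in control cells and 8744 and 8416 after cisplatin (0.18 ± 0.05, DESeq2 adjusted p = 0.00285). It was not called without control replicate 2 (0.12, DESeq2 adjusted p = 0.118) or without cisplatin replicate 1 (0.16, DESeq2 adjusted p = 0.108). Cox4i1 overlaps Gm20388 on the same strand, which had 2921 to 3971 counts, and Emc8 on the other, so its reads may be divided.

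Cox7a2l, a relative of Cox7a2 that is described as a factor joining complexes III and IV into supercomplexes, was the member that moved in opposite directions. Neither its protein, the supercomplexes nor the allele that these cells carry was examined here. Cox7a2l had 2636 and 2722 normalised counts in control cells, 2087 and 2089 after oxaliplatin and 3285 and 3142 after cisplatin. The oxaliplatin libraries were the lowest, the cisplatin libraries were the highest, and the libraries of a group differed little. Against control, the log2 fold change was -0.36 ± 0.06 after oxaliplatin (95% interval -0.48 to -0.24, DESeq2 adjusted p = 5.7e-08) and 0.26 ± 0.06 after cisplatin (0.15 to 0.38, DESeq2 adjusted p = 7.44e-05). Both calls held under all 17 alternatives, with adjusted p of at most 0.00183 and 0.049. Its relative Cox7a2 had 2327 and 2213 in control cells, 2431 and 2527 after oxaliplatin and 2498 and 2380 after cisplatin, with neither difference called (0.13 ± 0.06 and 0.10 ± 0.07).

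**Figure D4:**
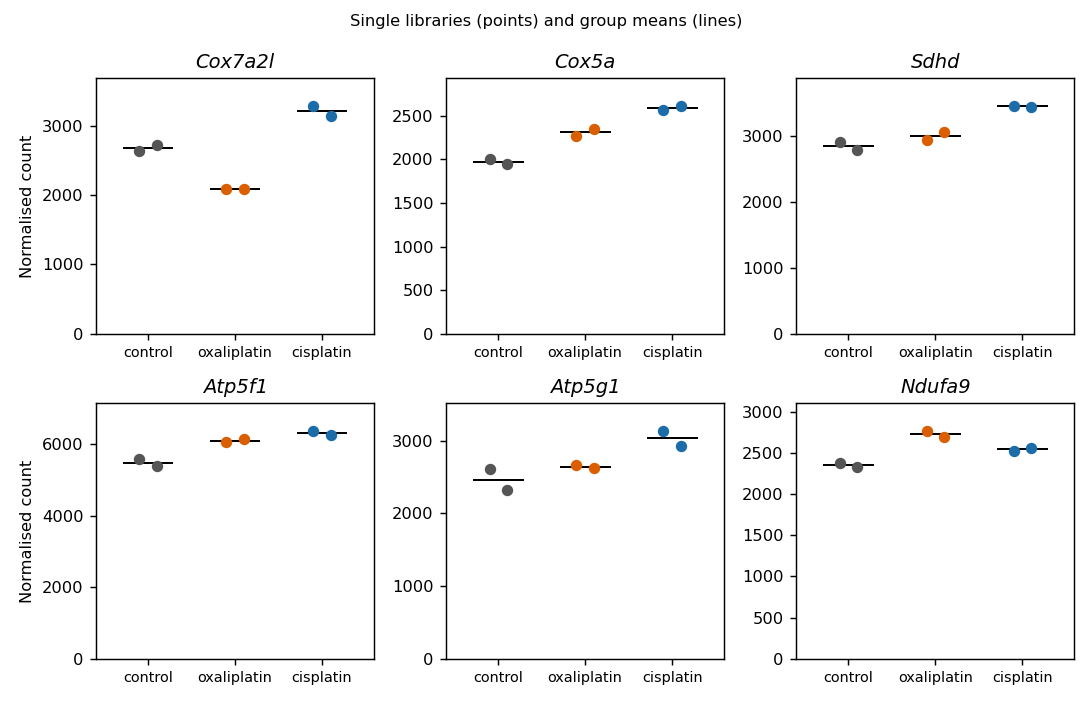
Normalised counts of 6 nuclear members in single libraries (points) with group means (lines), each axis from 0. Cox7a2l is lowest after oxaliplatin (2087 and 2089) and highest after cisplatin (3285 and 3142), whereas Cox5a, Sdhd, Atp5f1 and Atp5g1 are highest after cisplatin and Ndufa9 after oxaliplatin.

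Mitochondrial genes were called after cisplatin in complex I only. mt-Nd2 had 27472 and 28888 normalised counts in control cells and 32014 and 29939.8 after cisplatin (0.14 ± 0.04, DESeq2 adjusted p = 0.00599), and mt-Nd1 had 56189 and 60399.9 against 65046 and 61252 (0.12 ± 0.04, DESeq2 adjusted p = 0.0287). With copies summed, mt-Atp6 joined them, with 85628 and 91119.5 in control cells and 98133 and 94581 after cisplatin (0.12 ± 0.04, DESeq2 adjusted p = 0.0116), whereas its own counts gave -0.41 ± 0.68. Calls of mt-Nd1 and mt-Nd2 were lost without control replicate 1 and without cisplatin replicate 1, and that of mt-Nd1 also without oxaliplatin replicate 1 (adjusted p = 0.0546) and with edgeR. Both were lost with total counts as the scaling. The summed normalised counts of all 13 genes and their copies were 676666 and 732910 in control cells, 668078 and 691628 after oxaliplatin and 738843 and 692716 after cisplatin. The control libraries overlapped with those of each drug in this sum, and both oxaliplatin libraries lay below both cisplatin libraries.

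The drugs themselves were compared directly, as 1 pair at matched dose and time. Between oxaliplatin and cisplatin 7 of the 95 members (7.37%) were called, against 19.9% of all genes. One was higher after oxaliplatin, where 8.62% of all genes were, and 6 were lower, where 11.3% were. The libraries of the drugs did not overlap for 45 members (47.4%), against 68.0% of all genes. The nuclear median was -0.03 and the mitochondrial median -0.04, or -0.05 with the copies summed. With total counts as the scaling the split became 4 higher and 3 lower. With edgeR, which called 31.9% of all genes, it became 6 and 6. The number called fell without either oxaliplatin library and without either cisplatin library, as it did over all genes.

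Cox7a2l had the largest called difference, with a log2 fold change of -0.62 ± 0.06 for oxaliplatin over cisplatin (95% interval -0.74 to -0.51, DESeq2 adjusted p = 3.24e-23), and was called under all 17 alternatives. mt-Nd1 followed in adjusted p with -0.18 ± 0.04 (DESeq2 adjusted p = 0.000463), from 55416 and 56281 normalised counts after oxaliplatin and 65046 and 61252 after cisplatin. It was lost only without cisplatin replicate 1 (-0.13, DESeq2 adjusted p = 0.059). With its copies summed, mt-Co2 was also lower, by -0.17 ± 0.04 (DESeq2 adjusted p = 0.000766).

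A further 4 nuclear genes were lower after oxaliplatin than after cisplatin, Sdhd by -0.20 ± 0.06 (DESeq2 adjusted p = 0.00281), Cox5a by -0.17 ± 0.06 (DESeq2 adjusted p = 0.0323), Atp5g1 by -0.20 ± 0.07 (DESeq2 adjusted p = 0.027) and Atp5c1 by -0.12 ± 0.04 (DESeq2 adjusted p = 0.0302). Ndufs4 was higher by 0.23 ± 0.08 (DESeq2 adjusted p = 0.0293), with 1066 and 1043 normalised counts after cisplatin. All 5 calls were lost without any 1 of the 4 treated libraries. Other members did not pass the test, which leaves room for differences within their intervals: for Atp5b the interval ran from -0.08 to 0.06 and for Uqcrc2 from 0.03 to 0.29.

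Genes that build or feed the complexes were counted from companion lists. Their shares are read against the 20.2% of all genes called after oxaliplatin and the 28.1% called after cisplatin, as descriptions with no test. Of the 78 genes of the mitochondrial ribosome, which translates the 13 mitochondrial genes, 25 were higher and 1 was lower after oxaliplatin (33.3% called against 20.2%), and 17 were higher and 2 lower after cisplatin (24.4% against 28.1%), with medians of 0.17 and 0.09. Mrpl37 had 931 and 825 normalised counts in control cells, 1230.1 and 1301 after oxaliplatin and 1080.3 and 1115 after cisplatin (0.53 ± 0.10 after oxaliplatin, DESeq2 adjusted p = 6.37e-07). Mrpl49 had 1526 and 1547, 1677 and 1696, and 2176 and 2187 (0.51 ± 0.07 after cisplatin, DESeq2 adjusted p = 1.13e-12). Without any 1 of the 6 libraries the higher calls of this list were fewer in both comparisons, as were those over all genes.

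Of 18 complex I assembly factors, 4 were higher after oxaliplatin (22.2% called against 20.2% of all genes), and 3 were higher and 2 lower after cisplatin (27.8% against 28.1%). Ndufaf4 went from 310.3 in both control libraries to 477 and 512 after oxaliplatin and 333 and 310 after cisplatin (0.67 ± 0.14 after oxaliplatin, DESeq2 adjusted p = 3e-05). Of 21 tested Cox assembly genes 2 were higher after oxaliplatin (9.52% against 20.2%), Cox10 and Coa7, both lost without either oxaliplatin library. None was called after cisplatin by DESeq2, where 1 had an unadjusted p under 0.05. There edgeR called 2, beside 40.9% of all genes. Of 10 assembly factors of complexes II, III and V, 2 were higher after oxaliplatin (20.0% against 20.2%) and 3 after cisplatin (30% against 28.1%). Among them Sdhaf2, which helps to put the flavin into Sdha, had 1399 and 1298 in control cells and 1825 and 1804 after cisplatin (0.43 ± 0.08, DESeq2 adjusted p = 1.7e-06), and Tmem70, an assembly factor of ATP synthase, had 984 and 926 in control cells and 1332 and 1317 after oxaliplatin (0.47 ± 0.08, DESeq2 adjusted p = 4.25e-07).

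Of 17 genes for electron carriers, 4 were higher after oxaliplatin (23.5% called against 20.2% of all genes), and 2 were higher and 1 lower after cisplatin (17.6% against 28.1%). Coq10b, which binds ubiquinone, had 339 and 366 normalised counts in control cells, 585 and 599 after oxaliplatin and 533 and 597 after cisplatin. Its rise was 0.75 ± 0.13 with oxaliplatin (DESeq2 adjusted p = 2.25e-07) and 0.68 ± 0.13 with cisplatin (DESeq2 adjusted p = 2.77e-06). Cycs, cytochrome c itself, rose by 0.50 ± 0.12 after cisplatin (DESeq2 adjusted p = 0.000312). The call was lost without cisplatin replicate 1, where the adjusted p was 0.105.

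Of 13 genes of the citric acid cycle, 3 were higher and 2 lower after oxaliplatin (38.5% called against 20.2% of all genes) and 5 higher and 2 lower after cisplatin (53.8% against 28.1%). Suclg2, a succinyl-CoA ligase subunit, had 2303 and 2322 in control cells, 1777 and 1738 after oxaliplatin and 1624 and 1709.8 after cisplatin, and Cs, citrate synthase, had 8298 and 8562, 8464 and 8276, and 10129 and 10320.3. Suclg2 fell by 0.40 ± 0.07 (DESeq2 adjusted p = 7.45e-08) and by 0.47 ± 0.07 (DESeq2 adjusted p = 6.28e-11) on the log2 scale. Cs rose after cisplatin by 0.28 ± 0.04 (DESeq2 adjusted p = 4.36e-11), and the test between the drugs gave -0.29 ± 0.04 for oxaliplatin over cisplatin (DESeq2 adjusted p = 1.04e-11).

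Of 28 tested genes of mitochondrial DNA upkeep and transcription, 3 were higher after oxaliplatin (10.7% called against 20.2%) and 5 after cisplatin (17.9% against 28.1%). None was called lower, and the shares of all genes called higher were 10.7% and 15.7%. Lrpprc, which stabilises mitochondrial messenger RNA, had 2165 and 2260.1 in control cells, 3188 and 3247 after oxaliplatin and 2501 and 2633 after cisplatin. Its rise after oxaliplatin was 0.54 ± 0.06 (DESeq2 adjusted p = 8.79e-17) and exceeded that after cisplatin by 0.33 ± 0.06 (DESeq2 adjusted p = 1.49e-06). Of 9 regulators of mitochondrial biogenesis, 3 were higher and 1 lower after oxaliplatin (44.4% called against 20.2%) and 2 were higher and 1 lower after cisplatin (33.3% against 28.1%). Pprc1 was among the higher genes after each drug. Its log2 fold change over the 17 alternatives was 0.33 to 0.37 after oxaliplatin and 0.21 to 0.32 after cisplatin. Leaving out any 1 library lowered the calls over all genes in both comparisons, and few higher calls were left in the lists other than the ribosome.

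**Figure D5:**
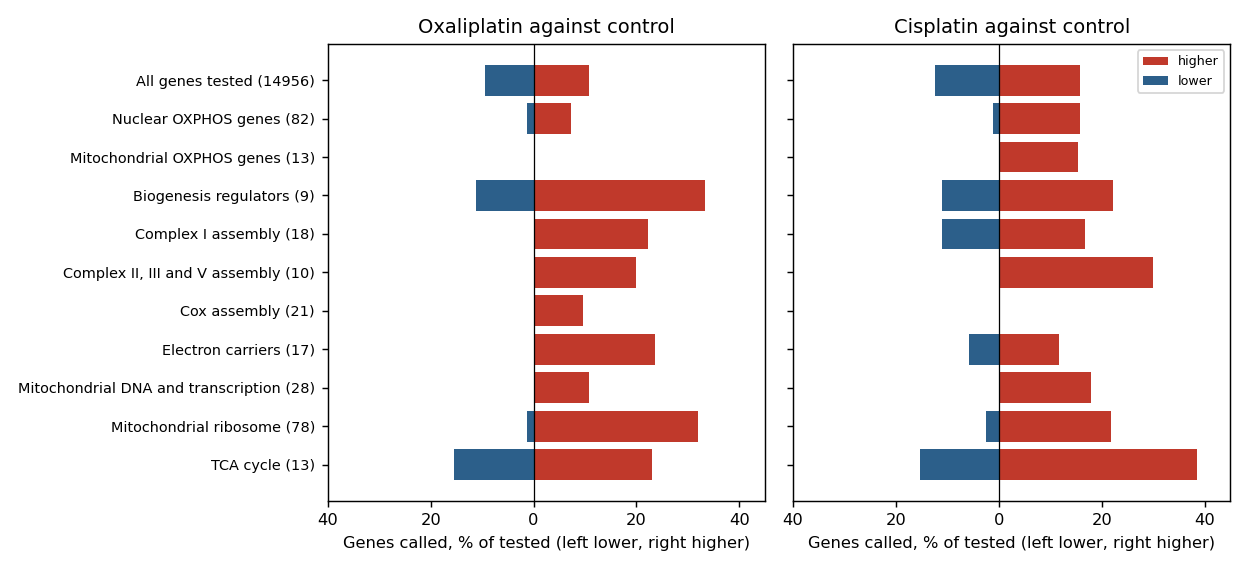
Share of tested genes called higher (right of 0) and lower (left of 0) against control at a DESeq2 adjusted p under 0.05, for all genes, the oxidative phosphorylation genes and 8 companion lists, with the number tested in brackets. After oxaliplatin 25 of 78 mitochondrial ribosome genes were higher, beside 6 of 82 nuclear oxidative phosphorylation genes.

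Nrf1, a transcription factor known to bind promoters of respiratory genes, moved in opposite directions. It had 890.3 and 836 normalised counts in control cells, 1045 and 1141 after oxaliplatin and 645 and 723 after cisplatin, and the 3 groups did not overlap. Oxaliplatin over control gave 0.34 ± 0.11 (DESeq2 adjusted p = 0.00729), cisplatin over control -0.34 ± 0.11 (DESeq2 adjusted p = 0.00848) and oxaliplatin over cisplatin 0.68 ± 0.11 (DESeq2 adjusted p = 7.15e-09). The last was called under all 17 alternatives. The first was lost without control replicate 2 (adjusted p = 0.164) and without oxaliplatin replicate 1 (0.0662) or 2 (0.277), and the second without control replicate 1 (0.156) or 2 (0.0537) and without cisplatin replicate 1 (0.245).

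Promoters of the members were searched for the NRF1 core CGCATGCG, which reads the same on both strands, for the ETS motif CCGGAAG and for the YY1 motif AAGATGGC on either strand. RefSeq promoter windows (GRCm38.p6, 250 bases before to 50 after the start) matched 69 of the 82 tested nuclear members, with 74 windows. The NRF1 core was in 9 of the 74 windows (12.2%), against 3.79% of the windows of 9950 tested protein-coding genes, the ETS motif in 16 (21.6% against 17.2%) and the YY1 motif in 11 (14.9% against 4.35%). These shares are a description, and a match is not a bound site. Windows of 30 bases around the core, shown because the core recurs in members of 4 complexes with different neighbours, are written 5′ to 3′ on the strand of the gene with the core in capitals. They lie at chr2:36049329-36049358 (minus strand) for Ndufa8, chr17:56717692-56717721 (plus) for Ndufa11, chr10:80406808-80406837 (minus) for Uqcr11, chr5:115349101-115349130 (minus) for Cox6a1, chr5:108434430-108434459 (minus) for Atp5k and chr16:84835105-84835134 (minus) for Atp5j.
Ndufa8: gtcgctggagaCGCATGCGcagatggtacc
Ndufa11: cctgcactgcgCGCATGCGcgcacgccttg
Uqcr11: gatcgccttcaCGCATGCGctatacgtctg
Cox6a1: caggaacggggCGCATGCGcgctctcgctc
Atp5k: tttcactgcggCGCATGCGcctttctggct
Atp5j: aggccagaataCGCATGCGtacagtgcagt

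The other members with the core were Uqcrc1, Atp5g2 and Atp5l. Of the 9, only Uqcrc1 was called, and after cisplatin only, where 16.8% of tested members and 28.1% of all genes were called. That call was lost in 13 of the 17 alternatives. The promoter windows of Cox5a and Cox7a2l held none of the 3 motifs, that of Sdhd held the ETS motif and that of Atp5f1 the YY1 motif. Yy1 itself had 2764 and 2803 normalised counts in control cells, 3072 and 3217 after oxaliplatin and 3189 and 3299.9 after cisplatin, and rose in both comparisons (0.18 ± 0.06, DESeq2 adjusted p = 0.0117, and 0.22 ± 0.06, DESeq2 adjusted p = 0.000746). The first call was lost without each of the 6 libraries and the second without cisplatin replicate 2.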

How the data were processed

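RNA from TRAMP-C2 cells was sequenced from poly(A) libraries made with a stranded kit, 2 per group. The authors deposited RSEM's expected counts for each gene, unscaled between libraries. RSEM splits a read among all genes it fits. The submitters' processing notes name STAR 2.5.3a, RSEM 1.3.0 and GRCm38.p6. For cell line RNA-seq the methods of the study give featureCounts instead. The annotation of the table and whether counting used strand are not given in the sources used here, so overlapping genes cannot be told apart. No other per-sample column was present.

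Identifiers were matched to GENCODE release M21 (54409 of 54446). Expected counts were rounded to whole numbers, and the 14956 genes that reached 10 counts in 2 or more libraries were fitted once with DESeq2 (version 1.42.0, R 4.3.3) on all 6 libraries with group as the factor, median-of-ratios scaling, unshrunken log2 fold changes and two-sided Wald tests, adjusted by Benjamini-Hochberg per contrast at a threshold of 0.05. Independent filtering used a level of 0.1. The steps were tested on simulated data. TPM values use the median length of the protein-coding transcripts of a gene. Copies of mitochondrial genes and of nuclear members were sought with blastn 2.17.0 among annotated transcripts (at least 95% identity over at least 100 bases, and for nuclear members over at least 50% of the transcript). Before the fit with summed copies, the counts of a mitochondrial gene and of its copies were added. Total counts of 21345312 to 24041767 make 3 counts equal to 0.125 to 0.141 CPM.

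The genes named were mainly drawn from all mitochondrial genes, the Sdh genes, tissue isoforms and the genes with the smallest adjusted p by a set rule. That rule took 4 genes per nuclear complex against control for each drug and 2 per complex between the drugs. It also took 2 per companion list for each drug. Not every gene so selected is described in the text, and among those left out are Ndufa2, Ndufb9, Mrps18b, Mrps6, Mdh2 and Twnk. Members, lists and this rule were chosen with earlier results of these data known. Of the companion genes, Fastkd4 and Prorp were not matched in the table. The 17 alternatives were edgeR (version 4.0.16, quasi-likelihood test), TMM and total-count scaling, no filter, a filter that asked for 10 counts in all 6 libraries, independent filtering switched off, the replicate number as a block, removal of trends with transcript length and GC content, that removal with the block, a fit restricted to the groups compared, each of the 6 libraries left out, and mitochondrial genes summed with their copies.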

Additional observations from a re-analysis of the deposited data

How the results depend on the processing

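With 2 libraries a group, small differences depended on single libraries. Leaving out 1 library gave 2 to 11 called members after oxaliplatin, 7 to 18 after cisplatin and 2 to 6 between the drugs, where a group left with 1 library is assumed to vary like the others. With 1 library left out, the mitochondrial median ran from -0.11 to 0.09 after oxaliplatin, from -0.08 to 0.08 after cisplatin and from -0.10 to 0.03 between the drugs. Those medians used the counts assigned to the genes themselves, without copies. The nuclear median was above 0 in both comparisons with control under every alternative, at 0.02 to 0.11 after oxaliplatin and 0.04 to 0.14 after cisplatin. edgeR called 11 members after oxaliplatin (beside 30.9% of all genes) and 12 between the drugs (beside 31.9%). Total-count scaling called 8 after cisplatin (beside 28.1%). Removal of the length and GC trends called 13 members after oxaliplatin (beside 20.8% of all genes). It gave mitochondrial medians of -0.12 after oxaliplatin and -0.12 after cisplatin. With the replicate block as well these were -0.13 and -0.11. mt-Atp8 then turned to -0.24 after oxaliplatin and -0.14 after cisplatin, with and without the block. mt-Atp6 turned to 0.12 after cisplatin when copies were summed, and the spread of mt-Co3 fell from 713 to 1.1, which the sum itself shows. Other causes were not tested. The replicate block called 4 members between the drugs, beside 12.4% of all genes. Deviations of libraries with the same number correlated at 0.00692, 0.0395 and -0.00723 over all tested genes. These values show no strong shared deviation, but all genes weigh alike in them, those with low counts included. They therefore cannot show whether libraries with the same number were handled together. Over the named genes and alternatives, 3210 values kept side and direction of the test, 273 lost a call, 76 gained 1 and 5 reversed.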
